A study of Sus scrofa with 599 samples.

Results

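Of the 236 RNA-seq samples of 4 adipose tissues in this pig series, 104 came from weight-gain (WG) pigs whose replicate number was present in every depot. They covered 26 numbers in each of the greater omentum (GOM), mesenteric adipose (MAD), retroperitoneal adipose (RAD) and the upper layer of backfat (ULB). The pigs were adult females of the Bama breed that had been fed a high-fat diet. The labels give each library a depot and a replicate number but do not state that a number marks 1 pig, so "same number" is used below as the labels write it. A gene was kept when it was above 0.5 TPM (transcript abundance scaled to gene length and library size) in 80% of these 104 libraries, which left 13306 of the 21280 protein-coding genes in the table. For each gene, log2(TPM + 1) was correlated between depots across the 26 numbers, which gave 6 Pearson correlations (r) per gene, one for each depot pair. The weight-loss (WL) pigs, described in the study as WG pigs that were later put on a restricted diet, gave 40 libraries of 10 numbers that took no part in choosing the genes.

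White fat depots share adipocytes, vessels, fibroblasts and immune cells, but differ in developmental origin, blood drainage and neighbouring organs. An animal's genotype, hormones, infections and the hour of sampling reach every depot, and variation from these sources appears as genes that are high or low in all fat of the same animal. Variation kept to 1 depot can come from a local cell mixture or from neighbouring tissue cut with the fat. In bulk tissue, fewer cells of a type and less RNA per cell cannot be told apart.

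The adipocyte hormone gene ADIPOQ had medians of 2150, 2810, 2920 and 2330 TPM (depots in the order above), and its lowest value in any of the 104 libraries was 343 TPM. The lipid chaperone FABP4 had medians of 8370 to 13500 TPM. The libraries therefore carried the fat markers of their labels. Total estimated counts per library were 4841230 to 22797044, with a median of 18000328.

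The largest shared difference between the numbers was in transcripts encoded by the mitochondrial genome. In 10 numbers (5, 6, 11, 13, 19, 20, 27, 31, 33 and 34) the median share of these transcripts in protein-coding TPM was 1.55 to 4.22%, and in the other 16 it was 12.8 to 27.2%. No number had a median between these ranges. ND4, a subunit of respiratory complex I made in mitochondria, was at 66.6 to 443 TPM in GOM of the low-share numbers and at 9800 to 29600 TPM in GOM of the high-share numbers. ATN1, a nuclear gene for a transcriptional corepressor, split the same way, at 4.56 to 10.4 TPM against 59.4 to 111 TPM in GOM. The labels describe the same RNA extraction and ribosomal RNA depletion for all of these libraries and do not mention the 2 sets. Median total counts were 15729993 in the low-share numbers and 19024775 in the high-share numbers. Protein-coding genes took a median of 92.9% and 95.7% of TPM. Across the 26 numbers both measures were correlated between depots (Spearman's rho 0.405 to 0.778 and 0.56 to 0.787). Within either set alone no depot pair passed a permutation test for them (adjusted p below 0.05), the smallest being 0.0501 for total counts of GOM with MAD in the high-share numbers. The mitochondrial share itself stayed correlated within the high-share numbers (Pearson's r 0.476 to 0.79). There 3 of the 6 pairs passed the permutation test by Spearman's rho and 1 by Pearson's r. Subtracting the set means does not remove this part. The part of total counts and protein-coding share in the set differences was not tested. All 40 WL libraries were of low share, at 0.653 to 3.59%.

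**Figure D1:**
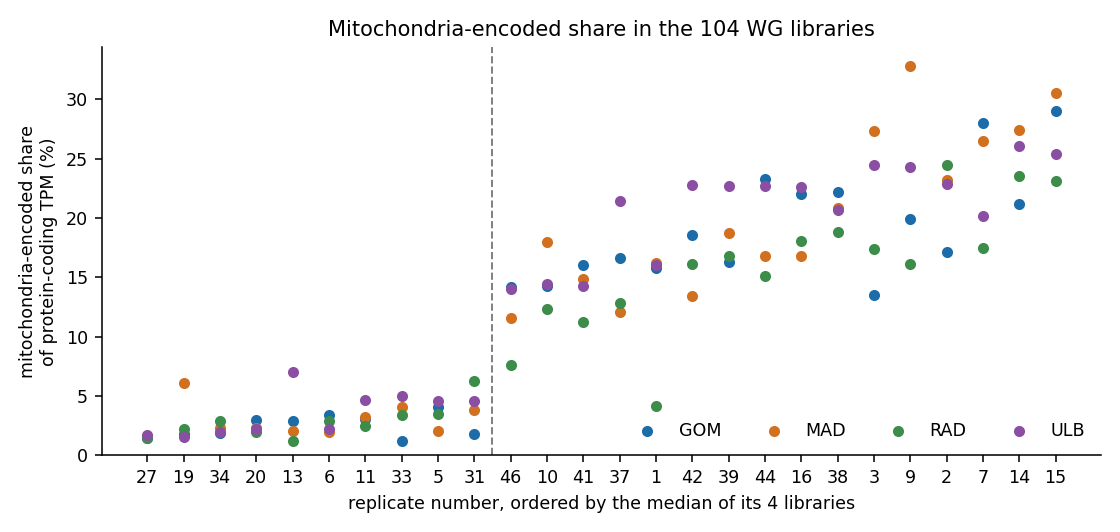
Share of protein-coding TPM (%, y axis) that came from mitochondria-encoded genes in each of the 104 WG libraries, with the 26 replicate numbers on the x axis in order of their median and 1 point per depot. The 10 numbers left of the dashed line had medians of 1.55 to 4.22%, the 16 on the right 12.8 to 27.2%, and RAD of number 1 sat at 4.14% while its other libraries were near 16%.

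Single libraries stood apart from their number. RAD of number 1 had a mitochondrial share of 4.14%, and RAD of number 46 one of 7.65%, in numbers of the high-share set. MAD of number 6 had a low share but ATN1 at the level of the high-share libraries. Protein-coding genes took 65.6% of TPM in MAD of number 19 and 76.1% in GOM of number 6, the lowest values of the 104. When each library was matched to the mean of the other depots of every number over the 67 genes described below, GOM of number 7 (own number r = 0.116, number 2 r = 0.304) and RAD of number 9 (own number r = 0.413, number 5 r = 0.511) were closer to another number. The 67 genes had been chosen for their correlation between same-numbered libraries, so the match of the other libraries is no test. The profile correlations, the class sizes and the correlations of leading genes and lists are also given without numbers 1, 6, 7, 9 and 46, and other values with them. Numbers 7 and 9 are named here only for their match over the 67 genes, so correlations of these genes without them are no separate test.

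Over whole profiles, libraries of the same number resembled each other. The mean r of same-numbered libraries was 0.598 (deviations from the depot mean over 13306 genes, 26 numbers, 2-sided permutation p = 1e-05, the smallest the permutations can give). After the mean of each set was subtracted within each depot (set-centred values below), it was 0.364, again with a permutation p of 1e-05 when numbers were permuted within the sets. It was 0.65 without the 5 numbers, and 0.382 with set-centred values. The set-centred median over same-numbered pairs was highest for GOM with MAD, at 0.434, and lowest for GOM with ULB, at 0.331, while pairs of other numbers had medians from -0.0194 to -0.00504. In edgeR's quasi-likelihood test, 12958 genes (97.4% of those tested) had an adjusted p below 0.05 for the number. With the sets as terms in each depot it was 11492 genes (86.4%), and 10755 genes (80.8%) without the 5 numbers.

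The size of the shared part depended on the sets. The median over genes of the mean of the 6 correlations was 0.522 with all numbers together and 0.313 with set-centred values. It was 0.315 within the 10 low-share numbers and 0.307 within the 16 high-share numbers. With set-centred values, 90% of genes lay between 0.0607 and 0.583, and 8428 genes had a positive r in all 6 pairs.

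**Figure D2:**
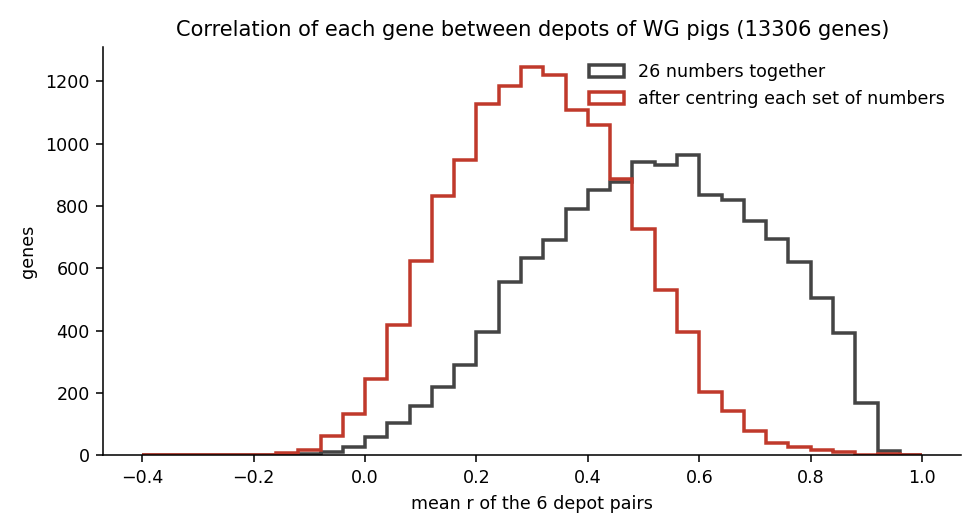
Number of genes (y axis) by the mean r of the 6 depot pairs (x axis, bins of 0.04) over the 13306 genes, with the 26 numbers together (grey) and after centring each set of numbers (red). The medians were 0.522 and 0.313.

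By the fixed limits (a standard deviation of at least 0.5 in each depot and r of at least 0.6 in each pair), 1447 genes (10.9%) were correlated in all 4 depots. Differences between the 2 sets held a median of 72.7% of their variance, against 25.8% for all genes. Of the 1447, 1134 differed between the sets by 1 log2 unit or more, where 1359 of all 13306 genes did. Of these 1447, 1042 were higher in the high-share numbers and 405 in the low-share numbers, against 7122 and 6184 over all genes. The 12 mitochondria-encoded genes that passed the filter were all among them, with a median mean r of 0.905, which was 0.284 with set-centred values. The pooled correlations of the 1447 genes are therefore not given one by one. With set-centred values the same limits left 67 genes (0.504%), of which 64 were also in the pooled class, and the sets held a median of 6.51% of their variance. Each of the 67 had been chosen by its correlations, so these are a description. Their median mean r was 0.779, and 0.808 and 0.776 in the low-share and high-share numbers taken alone. Without the 5 numbers named above the limits held for 89 genes, 64 of them among the 67.

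The limits cut through a continuous range. LYNX1 (lowest set-centred r 0.6) was just inside, and KCNQ1 (0.596) and SH2B2 (0.592) were just outside. Of the 67 genes, 21 had no symbol, 41 had a place in RefSeq on 16 chromosomes, and only the pair SLC30A2 and ZNF683 lay within 1 Mb of each other. Levels also differed between depots for most of them, and 58 of 67 had an adjusted p below 0.05 for depot in edgeR with the number as a block, where 77.5% of all genes had one.

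AOX1, aldehyde oxidase, which oxidises aldehydes and nitrogen heterocycles including drugs, had the widest spread of the 46 named members, with a mean set-centred standard deviation of 2.24 log2 units. It ranged from 0.365 TPM through a median of 50.7 to 138 TPM in GOM, and from 0.263 through 49.3 to 166 TPM in MAD. In RAD it ranged from 0.303 through 50.8 to 182 TPM, and in ULB from 0.294 through 24.8 to 89.3 TPM. The gene lies at chr15:104157748-104234533 on the plus strand (RefSeq, Sscrofa11.1). Its values fell into 2 groups with a gap of at least 1.41 log2 units in every depot. Numbers 3, 5, 13, 20, 38, 42 and 46 were on the lower side in all 4 depots, at 0.365 to 7.17 TPM in GOM and 0.294 to 1.79 TPM in ULB. The other numbers were at 24.8 to 138 TPM in GOM and at 6.39 to 89.3 TPM in ULB. In all, 24 of 26 numbers were on the same side in every depot. The exceptions were number 7, low in MAD and RAD but not in GOM and ULB, and number 9, low in RAD alone. GOM of number 7 and RAD of number 9 are the libraries that matched another number better, over genes that include AOX1.

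The AOX1 pattern was also seen in the WL libraries, which the choice had not used. Numbers 1, 3 and 9 of WL were below 8 TPM in GOM, MAD and RAD, where the WL medians were 35.3, 27.7 and 55.5 TPM, and numbers 3 and 9 were below it in ULB. The mean r over the depot pairs was 0.9 in WL (10 numbers, permutation test, adjusted p = 0.000113 over the 259 named genes tested there). WL numbers are not stated to mark the same animals as WG numbers.

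**Figure D3:**
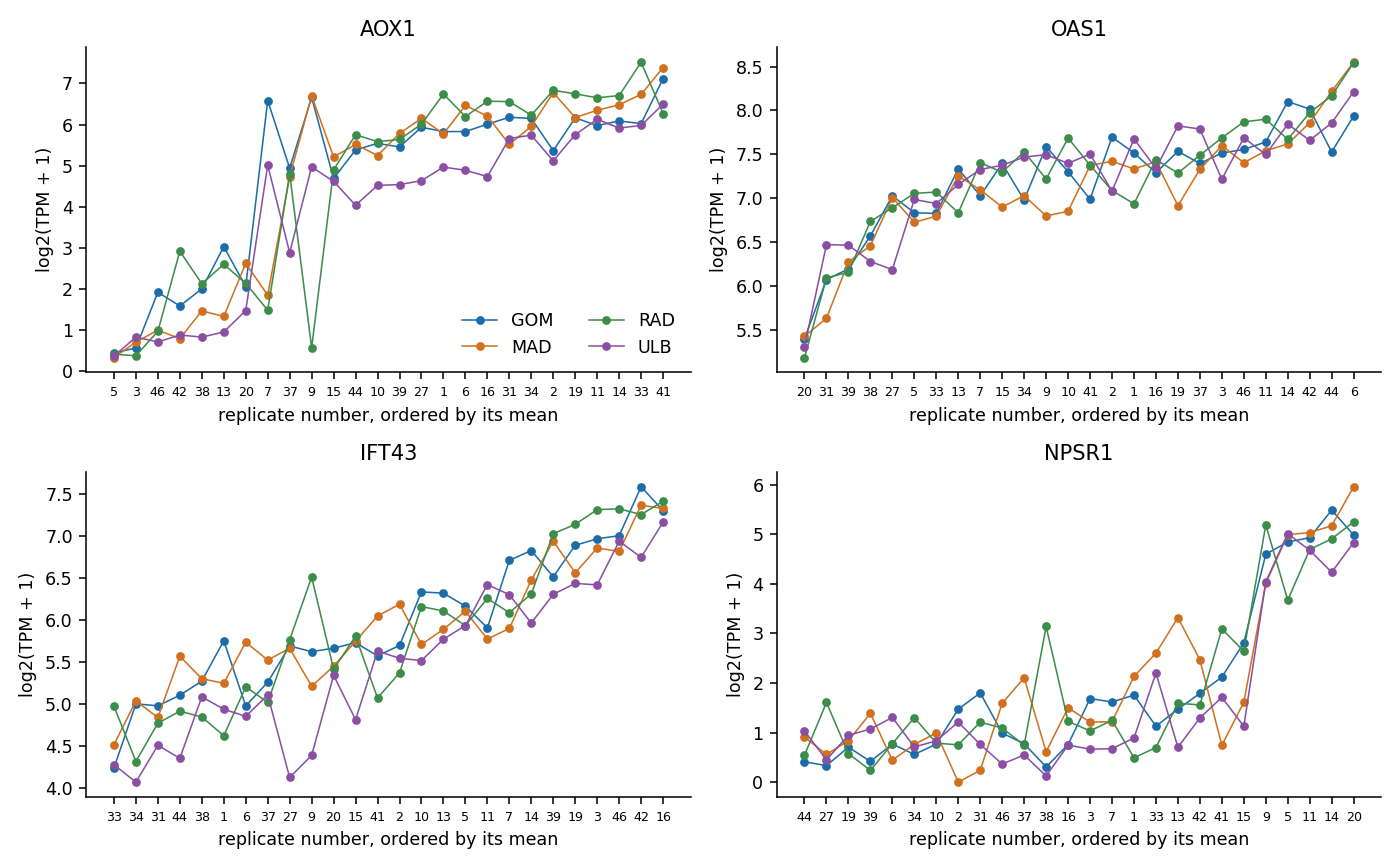
log2(TPM + 1) of AOX1, OAS1, IFT43 and NPSR1 (y axes) in the 26 replicate numbers of WG pigs (x axes, ordered for each gene by the mean of its 4 libraries), with 1 line per depot. The lines of the 4 depots ran together for each gene. AOX1 fell into separate groups of numbers, with numbers 7 and 9 crossing between them. NPSR1 was highest in the same 5 numbers in every depot.

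OAS1, an interferon-induced sensor of double-stranded RNA, varied in a graded way. Number 20 was the lowest in every depot, at 41.1, 41.9, 35.3 and 38.6 TPM. Medians were 144 to 166 TPM, and number 6 was the highest in MAD (374 TPM), RAD (372 TPM) and ULB (296 TPM), with number 14 highest in GOM (273 TPM). The lowest of its 6 set-centred correlations was 0.792, second to CNIH3 among named members. In WL its mean r was 0.861 (permutation test, adjusted p = 0.000113).

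CNIH3, a cornichon protein that escorts glutamate receptors to the cell surface, headed the named members with a lowest r of 0.795. Its levels were low, from 2.42 through 9.63 to 24.9 TPM in GOM and from 2.28 through 10.3 to 28.8 TPM in ULB. IFT43, a part of the transport machinery of cilia, ranged from 17.9 through 52.6 to 191 TPM in GOM and from 15.8 through 45.3 to 142 TPM in ULB, and its lowest number was 33 in GOM and MAD and 34 in RAD and ULB. CENPU, a kinetochore protein, had medians of 10.5 to 14.8 TPM and a highest value of 58.3 TPM, in RAD of number 9. PCDHB7 belongs to a cluster of similar protocadherin genes, and reads that fit several of them could have been split by the quantification.

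Other named members were enzymes. PON3, a lactonase of the paraoxonase family, had its lowest value in number 37 in every depot (39.6, 33.6, 20.0 and 38.3 TPM), against medians of 189 to 259 TPM. POR, which supplies electrons to all microsomal cytochrome P450 enzymes, ranged from 16.6 to 134 TPM over the 104 libraries, and 3 of its 4 highest depot values were in number 10. DHRS4, a carbonyl and retinal reductase, reached 943 TPM in GOM, 1580 in MAD and 690 in ULB of number 34, and 2250 in RAD of number 20, against medians of 136 to 343 TPM. NT5E, which makes adenosine outside the cell, had its lowest value in number 33 in MAD, RAD and ULB, at 3.99, 1.11 and 0.59 TPM. The class also held LGALS12, a galectin of lipid droplets, MS4A2, a chain of the mast cell receptor for immunoglobulin E, and CISH, an inhibitor of cytokine signals. Without the 5 numbers the mean set-centred r was 0.96 for AOX1 (0.846 with them), 0.848 for OAS1 (0.85), 0.919 for CENPU (0.842) and 0.839 for NPSR1 (0.851). AOX1 fell into separate groups of numbers and NPSR1 was high in a few, so r does not show a graded relation for them.

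Of the 67 genes, 63 could be tested in WL. Each of these had a positive mean r there, with a median of 0.691. In edgeR's quasi-likelihood test, 59 of them (93.7%) had an adjusted p below 0.05 for the number. Over the 13316 genes tested in WL it was 6533, or 49.1%. Of the genes kept in WG, 13072 could be tested in WL. Their median mean r was 0.23, and 11593 of them had a positive one. The 4 members that did not pass were CHAC1, LIN7A, S100A1 and 1 gene without a symbol. Of the 1447 genes of the pooled class, 652 of 1430 tested (45.6%) passed in WL, which is below the share over all genes. Of the leading named members described above, PON3 had the lowest mean r in WL, 0.457, and PCDHB7 the highest, 0.919, and each one measured there passed the permutation test with an adjusted p of at most 0.00624.

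Among the 28 lists with at least 5 genes, interferon-stimulated genes had the highest median with set-centred values. The 19 members that passed the filter had a median set-centred mean r of 0.584, beside 0.313 for all genes, and 14 were at 0.5 or more. Without the 5 numbers the medians were 0.634 and 0.325. IFI6, an interferon-induced mitochondrial protein, had 0.726, the antiviral GTPase MX1 0.7, RSAD2 (viperin) 0.684, and HERC5, the ligase that attaches ISG15 to proteins, 0.683. MX1 was highest in number 42 in GOM (71.9 TPM), MAD (74.1 TPM) and RAD (58.9 TPM), against medians of 24.8 to 31.3 TPM. RSAD2 was also highest in number 42 in these 3 depots, at 45.5, 45.3 and 51.1 TPM. In WL 18 of the 19 passed the number test in edgeR (49.1% over all genes), and the median mean r was 0.604 beside 0.23. Each of the 5 genes named here passed the WL permutation test, with mean r from 0.544 for IFI6 to 0.861 for OAS1.

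Interferon acts through a factor that binds the interferon-stimulated response element, and the promoters of these genes were searched for its core letters. The letters GAAA, then any 2 bases, then GAAA again, on either strand, were found in the 250 bases before the RefSeq gene start (Sscrofa11.1) of 10 of 22 genes of the list (45.5%), beside 2.99% of 19510 promoters. No match in this window says only that these letters are absent there, as for OAS1 (chr14:38851083-38867427, minus strand) and MX1. The stretches of 3 genes with a match are shown because this list had the highest median of the 28 lists, and ISG15 itself had a set-centred mean r of 0.452. They run 5′ to 3′ on the strand of the gene, with the match in capitals (TTTC at the start is the motif on the other strand). ISG15 had 3 matches in its window, of which only 1 is in capitals, and matches can overlap.

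ISG15: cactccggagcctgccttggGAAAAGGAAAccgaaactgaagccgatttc
RSAD2: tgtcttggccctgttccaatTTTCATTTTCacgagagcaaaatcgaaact
HERC5: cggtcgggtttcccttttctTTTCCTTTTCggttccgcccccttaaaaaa

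They lie at chr6:63363047-63363096 on the plus strand (ISG15), and on the minus strand at chr3:128897910-128897959 (RSAD2) and chr8:130591224-130591273 (HERC5). The matches of HERC5, RSAD2 and ISG15 started 95, 130 and 134 bases before the gene start. For comparison, the letters CACGTG, bound by clock factors, were in 3 of 18 clock promoters (16.7%) and in 6.4% of all promoters.

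Targets of glucocorticoids and genes of the clock also lay above the value over all genes. The 10 glucocorticoid targets had a median set-centred mean r of 0.491, and 0.599 in WL, where 9 of 10 passed the number test (49.1% over all genes). FKBP5, a co-chaperone induced by glucocorticoids, had 0.687 and ranged from 84.6 through 238 to 440 TPM in GOM, with its highest values in number 37 in GOM and MAD. KLF9 and ZBTB16, both transcription factors, had 0.593 and 0.541, and all 3 passed the WL permutation test (mean r 0.683, 0.825 and 0.710, largest adjusted p 0.000167). The 16 circadian clock genes had a median of 0.395, and 0.552 in WL, where 14 passed (49.1% over all genes). CIART, a repressor of the clock, was highest in number 38 in GOM (18.5 TPM), MAD (13.4 TPM) and RAD (16.2 TPM), and so was TEF, a clock output factor, at 34.2, 31.6 and 30.6 TPM. The hour of sampling is not in the labels and was not tested.

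Genes of lipid metabolism were less uniform. The 20 cholesterol synthesis genes had a median of 0.43. DHCR7, which makes cholesterol in the last step of 1 branch of the pathway, had 0.746, and INSIG1, which holds back the sterol sensor, 0.662. DHCR7 was highest in number 20 in GOM (23.5 TPM) and MAD (26.2 TPM), against medians of 7.45 and 8.3 TPM. Only 7 of the 20 passed in WL, a share below that over all genes. Lipogenesis genes had a median of 0.343, adipocyte markers 0.331, fatty acid oxidation genes 0.332, and lipolysis and lipid droplet genes 0.358, all close to the value over all genes. In WL their medians were 0.455, 0.415, 0.274 and 0.493, beside 0.23. There 11 of 14 lipogenesis genes, 9 of 12 adipocyte markers, 8 of 14 oxidation genes and 9 of 12 lipolysis genes passed the number test (49.1% over all genes). Within these lists PLIN5, which couples droplets to mitochondria, had 0.702, ADIPOQ 0.577 and LEP, which encodes leptin, 0.541. In WL, ADIPOQ had a mean r of 0.835 (permutation test, adjusted p = 0.000113), PLIN5 0.614 (0.000314) and LEP 0.0476 (0.796).

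Lists of immune cells differed. Markers of lipid-associated macrophages had a median of 0.486 over 15 genes and those of resident macrophages 0.460 over 14, and 12 of each list passed in WL (49.1% over all genes). CTSB, a lysosomal protease, had 0.616 and GPNMB, a glycoprotein of lipid-laden macrophages, 0.601, and both passed the WL permutation test (mean r 0.490 and 0.723). The 5 neutrophil markers had 0.551. The 15 T cell markers had 0.329 and the 7 markers of B and plasma cells that passed the filter 0.211. Swine MHC genes had 0.473 and xenobiotic and glutathione genes 0.469. Among other cell types, endothelial markers had 0.338, progenitor and fibroblast markers 0.283, fibrillar collagen and matrix genes 0.275, and smooth muscle and pericyte markers 0.226. Without the 5 numbers the T cell median was 0.268, below the 0.325 over all genes, and the collagen and matrix median was 0.396, above it. The nuclear genes of the respiratory chain had 0.253 and the cytosolic ribosomal proteins 0.363. Of the 28 lists with at least 5 measured genes, 18 were above the value over all genes in WG, 23 in WL, and 17 in both.

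**Figure D4:**
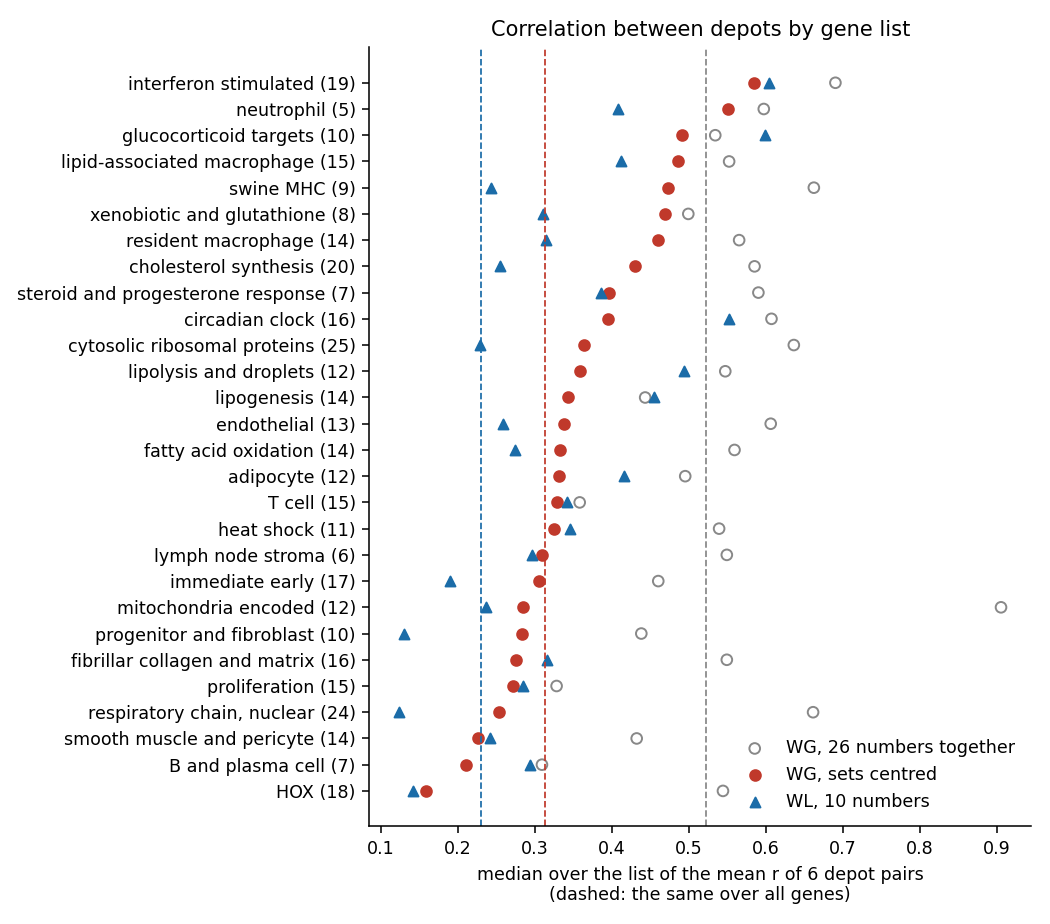
Median over each gene list of the mean r of the 6 depot pairs (x axis) for the 28 lists with 5 or more measured genes (y axis, number of genes in brackets), in WG with all numbers together (open circles), in WG with set-centred values (red) and in WL (blue triangles). Dashed lines are the medians over all genes, 0.522, 0.313 and 0.23, and the mitochondria-encoded list moved from 0.905 to 0.284 on centring.

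The deposited A-B index of the same numbers, a Hi-C score whose sign gives the active (A) or inactive (B) compartment of each 20000-base bin, was a readout that the choice of genes had not used. Same-numbered samples had a mean profile r of 0.107 over bins (permutation p = 1e-05). The match was weak. From 2 (RAD with ULB) to 6 (GOM with ULB) of the 26 samples in a depot pair correlated best with their own number. For GOM with RAD the median was 0.128 for the same number and 0.0569 for other numbers, and the lowest same-number r was -0.416. At gene starts the median set-centred r between depots was 0.0337 for all genes with a bin and 0.033 for the 41 members with one, so the class as a whole did not stand out. NPSR1, the receptor of neuropeptide S (chr18:38942499-39212791, minus strand), and SAL1, salivary lipocalin (chr1:253638017-253642835, minus strand), were exceptions, with index correlations of 0.715 and 0.852 between depots. They and OAS1 (0.335) were picked from the 41 members for their index values, so what follows on them is a description with no test.

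NPSR1 was high in numbers 5, 9, 11, 14 and 20 in every depot, with 23.2 to 43.8 TPM in GOM. Its range there was 15.1 to 61.1 TPM for MAD, 11.7 to 37.0 TPM for RAD and 15.4 to 31.2 TPM for ULB. The other 21 numbers had medians of 0.781 to 1.31 TPM and a highest value of 8.96 TPM. The index at its start had a median of -0.554 in these 5 numbers and -2.15 in the other 21 in GOM, and the groups did not overlap in GOM, MAD or RAD. In ULB the medians were 0.236 and -1.4, and the ranges overlapped (lowest of the 5 -0.488, highest of the others -0.17). The 5 numbers were read from the expression values. Among the other 21 numbers Pearson's r between level and index was -0.396, 0.204, -0.113 and -0.372 over the 4 depots, and Spearman's rho was -0.645, 0.0578, -0.241 and -0.31. In WL, NPSR1 was at 26.5 to 63.7 TPM in number 9 and below 8 TPM in the other 9 numbers.

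For SAL1, a high level went with a low index. Pearson's r between them across the 26 numbers was -0.563, -0.439, -0.502 and -0.648 in the depots in the same order. Spearman's rho was -0.52, -0.437, -0.498 and -0.677. Without the 2 samples farthest from the median index, r was -0.585, -0.458, -0.588 and -0.674. The mean of the 4 was -0.525 with set-centred values. SAL1 reached 590 TPM in ULB and 487 TPM in RAD of number 19, against medians of 41.3 and 46.1 TPM. For OAS1, r was 0.499 in RAD and 0.492 in ULB, and the first fell to 0.225 without the 2 farthest samples while the second was 0.504. Its mean over the depots was 0.417 with set-centred values.

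At the other end, 18 genes varied mainly in 1 depot, with a standard deviation of at least 0.5 there and at least 2 times that in any other depot. These limits allow some spread elsewhere, as for ALOX15 (0.56 in ULB) and ENSSSCG00000006580 (0.608 in MAD). GOM held 4 of the 18, MAD 5, ULB 9 and RAD 0. This order depended on the filter, which required expression over all 104 libraries. With the filter in any 1 depot, GOM held 29 such genes, MAD 14 and ULB 21. ZNF235 and ELOVL4 (ratio 2.0) were just inside the limit, and HPN (1.99) and STMN1 (1.97) just outside. In WG with the sets as terms, 14 of the 18 passed the number test (86.4% over all genes). In WL, 5 of the 18 passed it (27.8%, beside 49.1% over all genes). When the library farthest from the median was left out of each depot, 12 of 18 kept the ratio, and in MAD 0 of 5 did.

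In GOM the widest was ALOX15, a lipoxygenase that oxygenates polyunsaturated fatty acids and is found in eosinophils and macrophages. It ranged from 2.22 through 18.8 to 190 TPM in GOM and from 0.223 to 10.2 TPM in the other depots together. Number 3 was the highest, but the second was at 128 TPM, and the ratio of standard deviations was 2.92 with all libraries and 3.88 with the farthest library of each depot left out. EZR, ezrin, which ties actin to the membrane of epithelial and mesothelial cells, ranged from 61.9 through 238 to 581 TPM in GOM and from 27.3 to 115 TPM elsewhere. Markers of the mesothelium, the cell layer that covers the omentum, moved with it. Across the 26 GOM libraries, where both genes of a pair share each library's depth and cell mixture, EZR had r = 0.93 with UPK1B, 0.853 with BNC1, 0.796 with KRT8, 0.717 with KRT7 and 0.603 with WT1, but -0.0793 with HAS1 and -0.387 with SLPI. ALOX15 had 0.388 or less with each of the 9 markers. The mesothelial part in the EZR values was not tested.

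In MAD, HAO2, HAO1, SLC3A1 and EGF rested on the library of number 39. HAO2, a peroxisomal hydroxyacid oxidase, was at 103 TPM there and at 6.1 TPM or less in the other 25 MAD libraries. SLC3A1, which carries cystine in kidney and gut, was at 31.6 TPM against at most 1.95, HAO1 at 17.6 against at most 2.16, and EGF at 56.9 against at most 6.18. Looked up after these values were seen, the kidney genes UMOD and LRP2 were at 178 and 241 TPM in that library, with medians of 0.0612 and 0.895 TPM in the other 25 MAD libraries, and at most 12.5 TPM in the other depots of number 39. They were not confined to it. UMOD and LRP2 reached 9.49 and 5.78 TPM in other MAD libraries, and 22.7 and 53.8 TPM in the other depots over all numbers. The fifth gene, GPR174, a receptor of lymphocytes, was at 41 TPM in number 31 and at 7.73 TPM or less in the other 25. All 13 markers of B and plasma cells in the table were highest in this library, with a summed level of 4080 TPM against 33.4 to 259 TPM in the others, and 14 of 15 T cell markers were highest there too. Lymph node stroma markers summed to 870 TPM there, within the 95.4 to 916 TPM of the others, and 4 of 7 were highest there. The part of kidney or lymphoid tissue in these values was not tested.

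In ULB, 6 of the 9 genes varied together. They were NFYA, a subunit of the factor that binds CCAAT boxes, INTS7, a subunit of the Integrator complex, SLF2, which recruits a chromosome maintenance complex, and the zinc finger genes ZNF529, ZNF175 and ZNF235. Their 15 mutual correlations were 0.808 to 0.909 in ULB, and -0.384 to 0.718 in the other depots. The mean log2 level of the 6 genes was 2.07 to 2.58 in ULB of numbers 27, 31, 33, 34, 37, 38, 42 and 44, and 2.99 to 3.93 in the other 18 ULB libraries. In the other depots of these 8 numbers it was 3.17 to 3.72. All 8 were among the 11 numbers from 27 upwards, and 4 belonged to each of the mitochondrial sets. The 6 genes, the 8 numbers and the cut at 27 were read from these ULB values, so this is a description with no test. NFYA had a median of 6.1 TPM in ULB of the numbers from 27 and of 17.2 TPM in the numbers below, against 16.3 and 16.5 TPM in GOM. What else these ULB libraries share was not tested. Of the remaining ULB genes, ZNF599 was at 237 TPM in number 2 and at 25.5 TPM or less in the others, and ELOVL4, which makes very long chain fatty acids, was at 15.5 TPM in the same library. REM2, a small GTPase, had r from -0.634 to -0.387 with the 6 genes in ULB and its highest value, 7.19 TPM, in number 38.

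**Figure D5:**
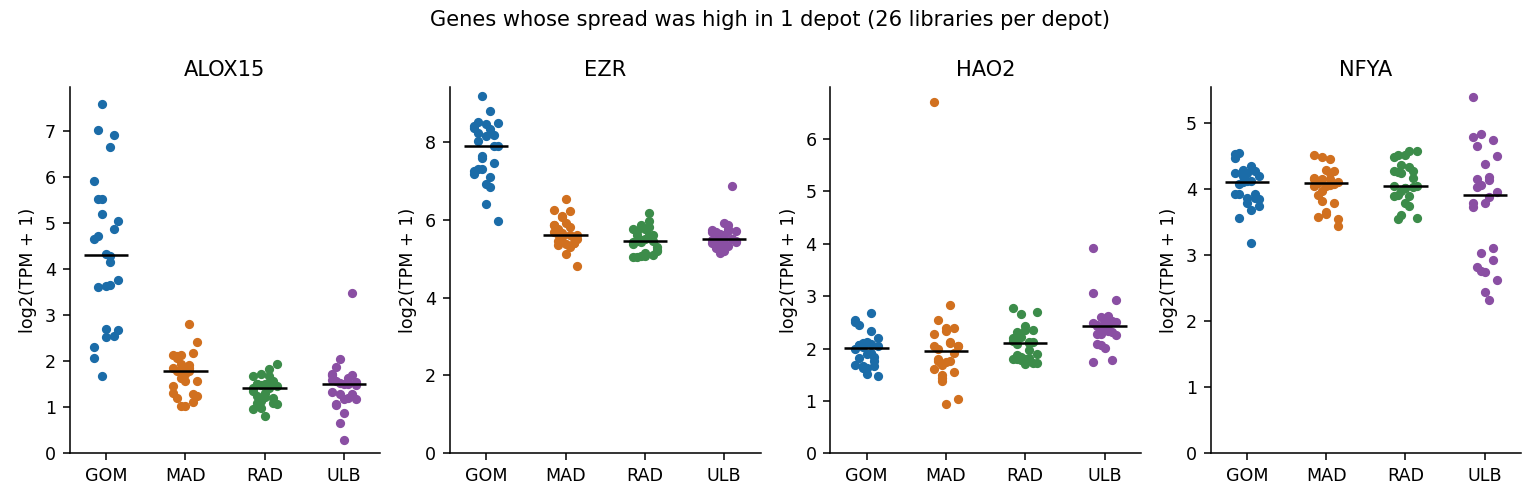
log2(TPM + 1) (y axes, from 0) of ALOX15, EZR, HAO2 and NFYA in each depot, with 1 point per library (26 a depot) and a bar at the median. ALOX15 and EZR spread widely in GOM, HAO2 had 1 high library in MAD (103 TPM), and NFYA fell into a low and a high group in ULB.

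Between these ends, 26 genes varied in every depot (standard deviation of at least 0.5) with no r of 0.3 or more in size in any pair. FOS and FOSB, immediate early genes that respond within minutes to handling or injury of tissue, were among them. FOS ranged from 72.0 through 211 to 545 TPM in GOM and from 101 through 389 to 1680 TPM in ULB, with different numbers at the top of each depot (1, 16, 34 and 39). With all numbers together the mean r was 0.153 for FOS and 0.156 for FOSB, and the 17 immediate early genes had a median of 0.46. With set-centred values these were 0.163, 0.0817 and 0.305. FOS and FOSB do not stand for their list, of which 4 genes were in the pooled class correlated in all 4 depots (10.9% over all genes). KRT8, a keratin of mesothelial cells, had a median of 107 TPM in GOM and of 1.73 to 3.88 TPM elsewhere, and a mean r of 0.146. The liver protein gene TTR had 0.0956. In WL, 7 of the 24 that could be tested passed (29.2%, beside 49.1%). Without the 5 numbers that stood apart, 8 of the 26 kept these limits.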

How the data were processed

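RNA-seq was made from total RNA after ribosomal RNA depletion with a stranded kit. The authors estimated transcript abundance with kallisto 0.43.0 (the labels' processing notes) on Sscrofa11.1 and summed it by gene. The deposited tables hold TPM and estimated counts, which were rounded for the count tests. The deposited A-B index is a score without a unit, computed by the authors from balanced and quantile-normalized Hi-C contacts. In each of the TPM, count and index tables, 9 sample columns match no label and were not used. Of the gene IDs, 14821 had a symbol.

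Numbers present in all 4 depots were kept and log2(TPM + 1) was used. Number and depot effects were tested with edgeR 4.0.16 (TMM, quasi-likelihood) in R 4.3.3 with Benjamini-Hochberg adjustment, and limma 3.58.1 and DESeq2 1.42.0 were alternatives. Single values were tested by 100000 permutations of numbers within depots. Where nothing states that samples are separate animals, p-values measure only the spread between these samples. The members and lists were chosen with earlier results of these data known. The sets, the set-centred values and the 5 left-out numbers were added after seeing the data. Named were the 15 genes with the highest lowest r in a class, the switch-like genes, up to 6 a depot of the 1-depot genes, and up to 5 a list, each also on set-centred values. The fits and class limits were tested on simulated data. Some items are not reported here.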

Additional observations from a re-analysis of the deposited data

Results flagged for a closer look

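In WL, protein-coding genes took 70.8% of TPM in GOM of number 9, against 81.3 to 91.4% in the other 9 GOM libraries. The gap to the nearest library was 0.51 of the whole range, above Dixon's critical value at 10 samples. Among the WG libraries, MAD of number 19 was lower still, at 65.6%.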

How the results depend on the processing

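The profile correlation of same-numbered libraries kept its direction and its permutation p of 1e-05 under all 9 alternatives, from 0.361 to 0.65. The number test in edgeR gave 8402 genes in the low-share numbers alone. The depot test gave 6561 genes with no replicate block, beside 10313 with the number as a block. Every pair of same-numbered libraries was above r = 0.1 in 3 of the 6 depot pairs, and all but number 1 in the other 3, so the numbers were not taken as shown to pair the samples. In each depot pair 16 to 21 of the 26 libraries correlated best with their own number.

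The class correlated in all 4 depots held 1447 genes. It held 962 at r of at least 0.7, 55 on residuals after the mitochondria-encoded and protein-coding shares, 67 set-centred, 67 in the high-share numbers alone, 75 in the low-share numbers alone, and 89 set-centred without numbers 1, 6, 7, 9 and 46. The 18 genes of 1 depot became 229 at a ratio of 1.5, 0 at a ratio of 3, 46 by median absolute deviation, 64 with the filter in any 1 depot, 267 with no filter, 33 set-centred and 29 without the 5 numbers. The 26 uncorrelated genes became 3 below r = 0.2, 47 with TMM-scaled counts, 53 with a pseudocount of 0.1, 53 set-centred and 11 without the 5 numbers. Of the correlated genes, 652 passed the number test in WL, and 59 of the smaller set-centred class. The causes of these shifts were not tested.

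A check of transcript length and GC content was void, because only 78.7% of all genes and 61.2% of the set-centred class had a RefSeq value. Depth limits genes near 1 TPM, and the index comes without counts per bin.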

Other observations

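Genes without a symbol led the set-centred class. ENSSSCG00000043871 had a lowest r of 0.951, with 3 or 4 numbers at 15 to 68.4 TPM and the others at 136 to 4200 TPM, and numbers 5, 11 and 19 were low in all 4 depots. ENSSSCG00000033566 put all 26 numbers on the same side in every depot, with 10 numbers at 6.46 to 78.8 TPM and 16 at 149 to 1960 TPM. Their mean r in WL was 0.955 and 0.914. Of 33 genes with a gap of at least 1 log2 unit in every depot, 24 followed the mitochondrial sets and 9 did not, and AOX1 was the only one of the 9 with a symbol.

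CELA2A, a pancreatic elastase, and CA3, a carbonic anhydrase of muscle and fat, were counted in lists of other tissues but varied together between depots, with set-centred mean r of 0.703 and 0.679. CA3 was highest in number 3 in GOM (1950 TPM), MAD (3240 TPM) and RAD (3330 TPM), against medians of 390 to 680 TPM. In WL their mean r was 0.633 and 0.722 (permutation test, adjusted p = 0.00037 and 0.000113). HOX genes, which mark position along the body, had a median set-centred mean r of 0.159, and 3 of 18 passed in WL (49.1% over all genes). Red blood cell genes had 0.369, with 4 of 4 passing in WL (the same 49.1% over all genes), and proliferation genes 0.271.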
